A study of Mus musculus with 10 samples.

Results

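Tnf, Il6, Il12b, Il10, Il10ra, Il10rb, Stat3, Socs1 and Socs3 were followed in tumour-associated macrophages of mouse mammary tumours. These 9 genes were taken by symbol from 21938 protein-coding genes, and all 9 had a value in each of 10 libraries. They pair inflammatory cytokines with the interleukin-10, Stat3 and Socs arm that restrains them and that Mertk signalling is known to use. Macrophages were sorted by flow cytometry from C57BL/6 mice, 5 weeks after grafting of PyMT tumour cells into 2 mammary glands, and 1 RNA-seq library was made from each sample. The PyMT model takes its name from the viral oncogene polyoma middle T, which starts the tumours. The 3 control libraries came from wild-type mice carrying wild-type tumour cells. The 4 libraries labelled Mertk KO came from mice with a macrophage-specific deletion of Mertk, also carrying wild-type tumour cells. The 3 Ptdss1 knockdown libraries came from wild-type mice whose tumour cells, not the macrophages, had Ptdss1 knocked down. Mertk is a receptor by which macrophages take up dying cells, and Ptdss1 makes phosphatidylserine, the lipid that marks them. The driver of the macrophage-specific deletion, the exons deleted, the way Ptdss1 was knocked down and whether each library was a separate mouse are not given by the labels, so the p-values measure the spread between these samples, which may in part be technical.

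In macrophages, microbial or damage signals act through NF-kappaB to switch on Tnf, Il6 and Il12b. Interleukin-10 binds a receptor made of Il10ra and Il10rb, the kinases Jak1 and Tyk2 then phosphorylate Stat3, and Stat3 switches on Socs3 and genes that lower inflammatory cytokine output. Socs1 restrains signalling by interferons, and Socs3 restrains signalling through the interleukin-6 receptor subunit gp130 without blocking that of interleukin-10. In mouse dendritic cells, Tyro3, Axl and Mertk are known to dampen cytokine production by inducing Socs1 and Socs3.

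The promoters of the genes that the results turn on are shown first, to let the motifs read by the 2 arms be seen. Each sequence is the 250 bases before the RefSeq transcription start in GRCm38, written 5′ to 3′ on the strand of the gene. Of the 9 genes, 6 had an entry in the promoter table. Capitals mark a match, on either strand, to the Stat motif TTCNNNGAA or to the kappaB motif, GGGA and TTTCC with any base between, which do not overlap each other here.
Socs3, chr11:117969367-117969616 (minus strand): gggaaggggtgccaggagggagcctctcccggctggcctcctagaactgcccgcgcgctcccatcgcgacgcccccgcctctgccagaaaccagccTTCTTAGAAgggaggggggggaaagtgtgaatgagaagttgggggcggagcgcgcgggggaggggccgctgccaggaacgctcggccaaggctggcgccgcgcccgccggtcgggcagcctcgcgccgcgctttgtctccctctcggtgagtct
Socs1, chr16:10785537-10785786 (minus strand): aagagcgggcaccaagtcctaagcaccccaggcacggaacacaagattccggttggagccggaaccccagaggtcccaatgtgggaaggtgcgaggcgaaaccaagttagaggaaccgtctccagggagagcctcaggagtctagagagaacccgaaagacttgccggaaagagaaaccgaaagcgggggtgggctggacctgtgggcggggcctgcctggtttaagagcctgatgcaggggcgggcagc
Tnf, chr17:35202008-35202257 (minus strand): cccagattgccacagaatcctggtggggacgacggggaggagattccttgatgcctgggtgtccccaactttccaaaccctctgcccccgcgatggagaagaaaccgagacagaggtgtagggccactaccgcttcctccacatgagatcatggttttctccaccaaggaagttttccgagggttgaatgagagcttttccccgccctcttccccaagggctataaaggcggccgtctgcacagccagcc
Il6, chr5:30012864-30013113 (plus strand): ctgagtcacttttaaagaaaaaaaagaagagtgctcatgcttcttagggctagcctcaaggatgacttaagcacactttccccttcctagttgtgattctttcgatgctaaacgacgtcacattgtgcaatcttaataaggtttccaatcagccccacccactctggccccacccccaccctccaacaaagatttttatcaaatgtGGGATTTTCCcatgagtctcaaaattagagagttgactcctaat
The Socs3 window held 1 Stat motif, TTCTTAGAA, beginning 154 bases before the start. Of the 6 windows, Socs3 was the 1 with that motif, which was present in 7.02% of 32851 promoters of the same length. The Il6 window held 1 kappaB motif, GGGATTTTCC, beginning 44 bases before the start. That motif was present in 0.356% of the promoters. The Socs1 and Tnf windows held neither, and nor did those of Stat3 and Il12b. A match is a description of the letters in these windows. The Socs3 window lies inside the gene as GENCODE M21, a second annotation, places it (117966079 to 117970047). The 2 annotations thus put the Socs3 start at different places, and the window precedes only the RefSeq one. Each of the other windows directly precedes its gene in both.

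The recovered reads per library ranged from 10292592 to 25815071. Libraries differed in how many genes they had captured: among genes seen in most libraries, the share with under 10 reads was 31.5% in Ptdss1 knockdown replicate 1, 13.1% in control replicate 2, and 8.60% and 5.75% in Mertk KO replicates 3 and 4, against 0.108% to 1.28% in the other 6. These 4 libraries are called gene-poor below, and results without them are given where stated. All 10 macrophage markers had at least 10 reads in every library, and their summed level was 20870 to 40562 reads per 1000000 (CPM). Mertk itself had 976, 585 and 2748 reads in the control libraries, 1080, 1030, 748 and 616 in those labelled Mertk KO, and 203, 1248 and 836 in Ptdss1 knockdown. The Mertk log2 difference between Mertk KO and control was −0.32 (SE 0.70, limma adjusted p = 1.00), so the reads of the whole gene did not set the groups apart, and without the deleted exons they do not check the label. Mertk KO names that label below. Reads in sorted macrophages cannot check a knockdown made in tumour cells. Values below are log2(normalised reads + 1), and fold changes on this scale understate the change of low genes.

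**Figure D1:**
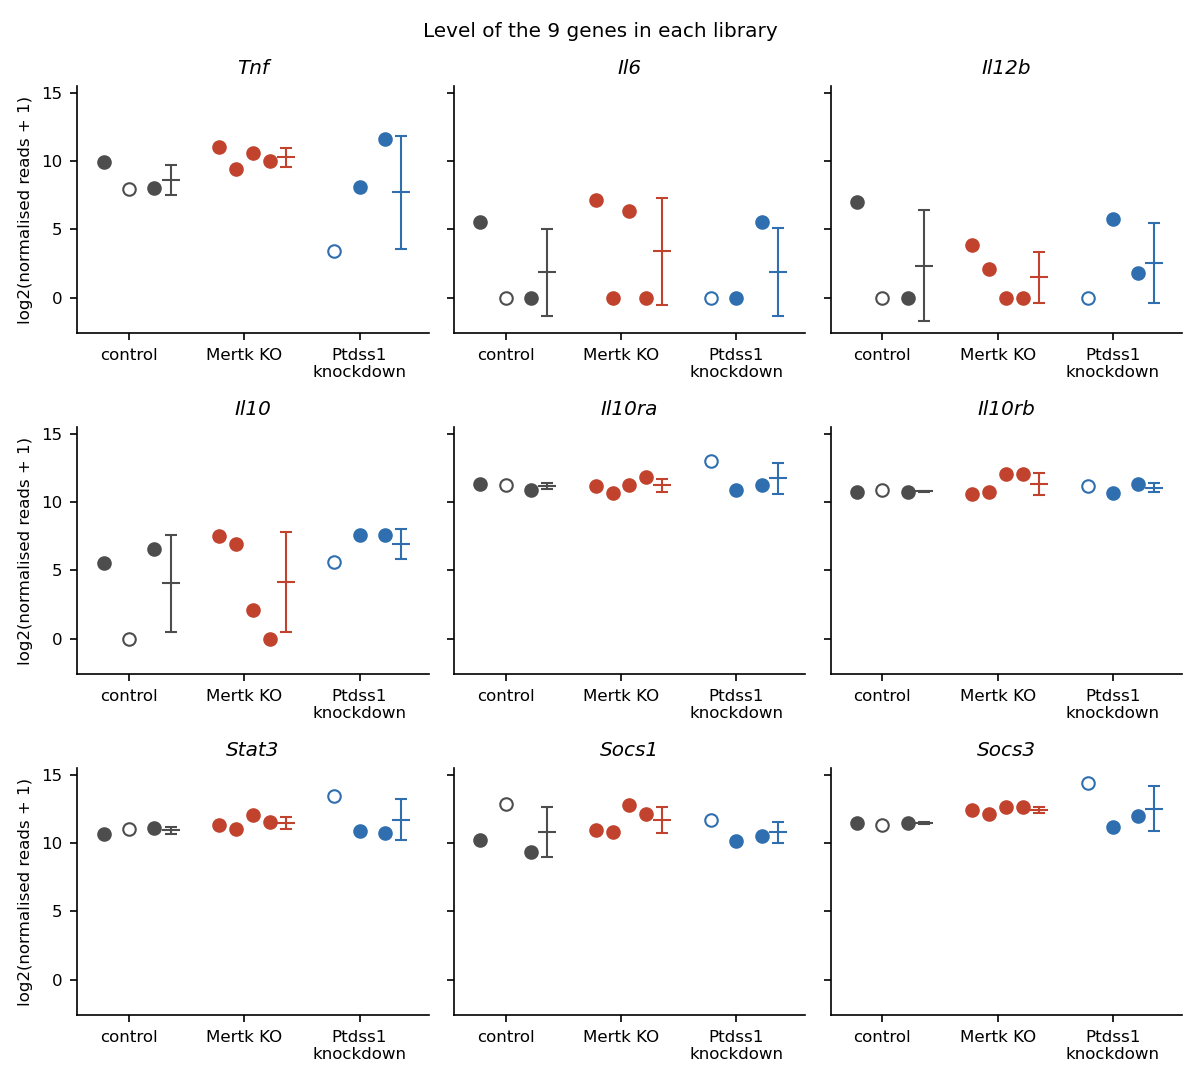
Level of the 9 genes in each library, as log2(normalised reads + 1), with 1 point per library and the group mean and SD beside the points (n = 3, 4 and 3); open circles are the 2 libraries with most missing genes, control replicate 2 and Ptdss1 knockdown replicate 1. Socs3 was between 12.10 and 12.63 in the libraries labelled Mertk KO and between 11.35 and 11.49 in control, while Il6, Il12b and Il10 reached 0 in at least 1 library.

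Set on a scale per kilobase of exon, the inhibitors and receptors were the more abundant transcripts and the cytokines the scarcer ones. The length was that of all annotated exons of a gene joined, from 9527 bases for Stat3 to 1639 for Tnf, not of its main transcript. Small steps in the order depend on that choice. Mean log2 level per kilobase over the 10 libraries fell from Socs3 (10.63) through Socs1 (9.61), Il10ra (9.55), Il10rb (9.16), Tnf (8.31) and Stat3 (8.13) to Il10 (4.65), Il6 (1.96) and Il12b (1.63). Of the 8 steps between neighbours in this order, 1 held in every library, that from Stat3 down to Il10, with a log2 difference of 3.48 ± 3.18 (SD, n = 10). Socs3 lay above Socs1 in 8 of 10 libraries (1.02 ± 1.20). The other steps were no larger than their SD, and Socs1 lay above Il10ra in 5 of 10.

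Tnf, the main early inflammatory cytokine of macrophages, was detected in every library. Its log2 level was 9.91, 7.97 and 8.01 in control, 11.04, 9.44, 10.57 and 10.01 in Mertk KO, and 3.40, 8.11 and 11.65 in Ptdss1 knockdown. Of the 4 libraries labelled Mertk KO, 3 lay above every control and the fourth lay among them, so the groups overlapped. The Ptdss1 knockdown libraries spanned both the lowest and the highest Tnf level of the series, from 11 to 5244 reads. The log2 difference was 1.64 (SE 1.37, 95% interval −1.31 to 4.58) for Mertk KO against control, with a limma adjusted p of 1.00. That SE rests on all groups, and the SD of Tnf was 4.14 in Ptdss1 knockdown, 1.11 in control and 0.69 in Mertk KO. With only the compared groups, or without Ptdss1 knockdown replicate 1, the unadjusted limma p was below 0.05 and the adjusted p 0.950 and 0.845. For Ptdss1 knockdown against control the log2 difference was −0.91 (SE 1.47, adjusted p = 0.917). Without Ptdss1 knockdown replicate 1, the library with 11 reads, that difference was 1.25 (adjusted p = 1.00). Between the 2 disruptions, the log2 difference of Ptdss1 knockdown from Mertk KO was −2.55 (SE 1.37, 95% interval −5.49 to 0.40, adjusted p = 0.805), and −0.39 without that library. Without Ptdss1 knockdown replicate 3, the library of highest Tnf, that difference was −4.51 (unadjusted p = 0.000663, adjusted p = 0.394).

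Il6, which signals through gp130 and Stat3, was scarce. It had 55, 0 and 0 reads in control, 97, 0, 99 and 0 in Mertk KO, and 0, 0 and 76 in Ptdss1 knockdown. Each group thus held libraries with 55 to 99 reads beside libraries with 0, and 6 of the 10 libraries were at 0. A count of 0 allows up to 3 reads, which was 0.124 to 0.205 CPM in those 6 libraries, by counting error only. The log2 differences were 1.54 (SE 2.23) for Mertk KO and 0.02 (SE 2.38) for Ptdss1 knockdown against control, and −1.52 (SE 2.23) between the disruptions, with limma adjusted p of 1.00, 1.00 and 0.874. Leaving out 1 library moved the Mertk KO difference from 0.28 without Mertk KO replicate 1 to 3.38 without control replicate 1, and the difference between the disruptions from −3.38 without knockdown replicate 3 to −0.26 without Mertk KO replicate 1. Il12b, the p40 subunit shared by interleukins 12 and 23, had 157, 0 and 0 reads in control, 9, 4, 0 and 0 in Mertk KO, and 0, 55 and 4 in Ptdss1 knockdown. It reached 10 reads in 2 libraries, below the 3 that testing required, and had 0 reads in all 4 gene-poor libraries.

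Il10, the ligand of the restraining arm, was low in most libraries. It had 57, 0 and 131 reads in control, 123, 150, 4 and 0 in Mertk KO, and 56, 200 and 310 in Ptdss1 knockdown. Both Mertk KO libraries with under 10 reads and the control at 0 were gene-poor, and 3 of the 4 lowest Il10 values were in gene-poor libraries. The fitted log2 differences were 0.08 (SE 2.15, 95% interval −4.43 to 4.59, adjusted p = 1.00) for Mertk KO and 2.87 (SE 2.30, 95% interval −1.96 to 7.69, adjusted p = 0.841) for Ptdss1 knockdown against control. Between the disruptions the difference was 2.79 (SE 2.15, adjusted p = 0.805), and 0.34 without the gene-poor libraries. In the 6 libraries that were not gene-poor, 2 per group, Il10 had 57 and 131 reads in control, 123 and 150 in Mertk KO, and 200 and 310 in Ptdss1 knockdown. Its log2 level there was 5.57 and 6.60, then 7.50 and 6.95, then 7.56 and 7.58. The differences from control in these 6 libraries, chosen after the data were seen, were 1.14 (SE 0.68, adjusted p = 0.884) for Mertk KO and 1.49 (SE 0.68) for Ptdss1 knockdown. The latter had an unadjusted limma p of 0.0485 and an adjusted p of 0.953, where 485 of 11564 genes had an unadjusted p below 0.05. Without control replicate 2 alone the differences were −1.95 for Mertk KO and 0.84 for Ptdss1 knockdown. Leaving out Mertk KO replicate 1 or replicate 2, which are not gene-poor, gave −1.04 and −0.86, so the direction of Il10 in Mertk KO turned with single libraries of either kind.

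Both receptor genes had at least 1026 reads in every library. Il10ra, the ligand-binding chain, was at 11.33, 11.27 and 10.91 in control, 11.16, 10.66, 11.22 and 11.81 in Mertk KO, and 13.04, 10.91 and 11.25 in Ptdss1 knockdown. A single library, the gene-poor Ptdss1 knockdown replicate 1, lay more than 1 log2 unit above the rest. Il10rb, the chain shared with receptors of other interleukin-10 family members, was at 10.73, 10.85 and 10.76 in control, 10.56, 10.74, 12.06 and 12.02 in Mertk KO, and 11.20, 10.68 and 11.29 in Ptdss1 knockdown. The 2 high Mertk KO libraries were the gene-poor replicates 3 and 4, while of the other 2 replicate 1 lay below every control and replicate 2 among them. Il10rb differed by 0.57 (SE 0.47) and 0.28 (SE 0.51) in Mertk KO and Ptdss1 knockdown against control, with limma adjusted p of 1.00 and 0.929. In the 6 libraries that were not gene-poor the Mertk KO difference was −0.09. Il10ra differed by 0.05 (SE 0.51, 95% interval −1.02 to 1.11) in Mertk KO and by 0.56 (SE 0.54) in Ptdss1 knockdown, the latter −0.09 without replicate 1 of the knockdown. Between the disruptions the differences were 0.52 (SE 0.51) for Il10ra and −0.29 (SE 0.47) for Il10rb, with adjusted p of 0.821 and 0.883.

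Stat3, the transcription factor downstream of both interleukin-6 and interleukin-10, was at 10.65, 11.01 and 11.13 in control, 11.32, 11.02, 12.06 and 11.51 in Mertk KO, and 13.45, 10.91 and 10.76 in Ptdss1 knockdown. Of the Mertk KO libraries, 3 lay above every control, and the fourth was level with the middle one. The log2 difference was 0.55 (SE 0.56, 95% interval −0.64 to 1.73, adjusted p = 1.00) for Mertk KO, 0.28 without the gene-poor libraries and 0.36 without Mertk KO replicate 3. It was 0.78 (SE 0.60, adjusted p = 0.841) for Ptdss1 knockdown and −0.10 without knockdown replicate 1. Between the disruptions it was 0.23 (SE 0.56, adjusted p = 0.928), and −0.64 without that library.

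Socs1, the inhibitor best known for restraining interferon signalling, was at 10.21, 12.89 and 9.32 in control, 10.98, 10.82, 12.80 and 12.10 in Mertk KO, and 11.68, 10.13 and 10.52 in Ptdss1 knockdown. The 4 highest values were those of the 4 gene-poor libraries, at 11.68 to 12.89, against 9.32 to 10.98 in the other 6. That order of libraries was shared by 2.46% of the 11564 genes tested, while 6.07% had the gene-poor libraries lowest; its part in the group differences was not tested. The log2 difference was 0.86 (SE 0.72, 95% interval −0.65 to 2.38, adjusted p = 1.00) for Mertk KO and −0.03 (SE 0.77, adjusted p = 0.998) for Ptdss1 knockdown against control, and −0.90 (SE 0.72, adjusted p = 0.805) between the disruptions. Without control replicate 2, the highest library, the Mertk KO difference was 1.91 (unadjusted p = 0.00865) and the Ptdss1 knockdown difference was 1.01, with adjusted p of 1.00 and 0.833. Without control replicate 3, the lowest library, the Mertk KO difference was 0.12, and without Mertk KO replicate 3 it was 0.49. Among the 6 libraries that were not gene-poor, Socs1 was at 10.21 and 9.32 in control, 10.98 and 10.82 in Mertk KO, and 10.13 and 10.52 in Ptdss1 knockdown. Both Mertk KO libraries lay above the other 4 of these, and the difference from control was 1.13 (SE 0.40, unadjusted p = 0.0141, adjusted p = 0.728).

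**Figure D2:**
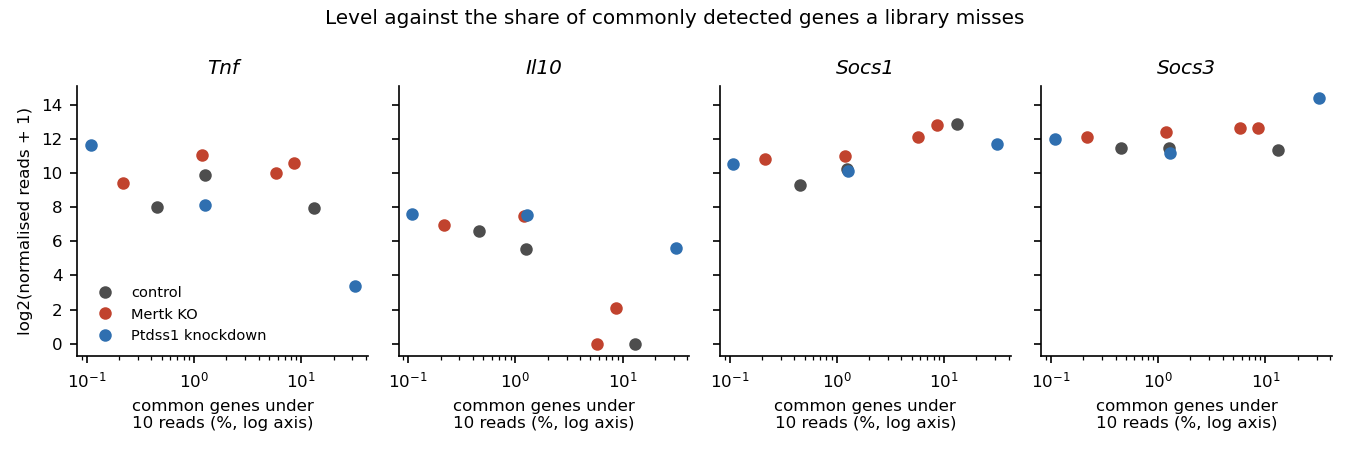
Level of Tnf, Il10, Socs1 and Socs3, as log2(normalised reads + 1), against the share of commonly detected genes with under 10 reads (percent, log axis), with 1 point per library coloured by group. The 4 libraries above 5% had the 4 highest Socs1 levels and 3 of the 4 lowest Il10 levels, while Socs3 was higher in Mertk KO than in control on both sides of that share.

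Socs3, the inhibitor of signalling through gp130, was the 1 member whose libraries labelled Mertk KO all lay above all controls. Its log2 level was 11.49, 11.35 and 11.49 in control, 12.39, 12.10, 12.61 and 12.63 in Mertk KO, and 14.38, 11.17 and 12.00 in Ptdss1 knockdown. The controls stood at 179, 171 and 162 CPM, and the libraries labelled Mertk KO at 354, 282, 403 and 370 CPM, which placed Socs3 between the 91.5th and 92.5th percentile of tested genes in the control libraries and between the 95.2nd and 97.3rd in the Mertk KO libraries. The control SD was 0.08 and the Mertk KO SD 0.24, and the gap between the highest control and the lowest Mertk KO library was 0.61 log2 units. The Ptdss1 knockdown libraries spread from below every control to above every Mertk KO library.

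The Socs3 log2 difference between Mertk KO and control was 0.99 (SE 0.56, 95% interval −0.20 to 2.17), a fold of 1.98, with an unadjusted limma p of 0.0967 and an adjusted p of 1.00. It thus did not pass the test, whose SE rests on all 3 groups and so includes the spread of Ptdss1 knockdown. Leaving out 1 library at a time gave 0.92 to 1.10. Without Ptdss1 knockdown replicate 1 the difference stayed at 0.99 with an SE of 0.33, an unadjusted p of 0.00947 and an adjusted p of 0.845. In the 6 libraries that were not gene-poor it was 0.75 (SE 0.40, adjusted p = 0.884). For Ptdss1 knockdown against control the difference was 1.07 (SE 0.60, 95% interval −0.19 to 2.34, adjusted p = 0.841), but 0.14 without knockdown replicate 1 and 1.75 without replicate 2. Between the disruptions it was 0.09 (SE 0.56, adjusted p = 0.975), and −0.85 (unadjusted p = 0.0403, adjusted p = 1.00) without knockdown replicate 1.

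Of the 9 marker lists of other cells, 2 had summed levels that did not overlap between Mertk KO and control, 1 lower and 1 higher in Mertk KO. The share of single tested genes without overlap was 5.62%, and none was computed for summed lists. The 6 NK cell markers summed to 84.7 to 140 CPM in control, 14.6 to 44.7 in Mertk KO and 62.8 to 113 in Ptdss1 knockdown, with Ncr1 at 0 in every control and Mertk KO library. In control most of that sum was Klrk1 and Nkg7: Klrk1 was at 40.4 to 113 CPM in control and 5.54 to 31.6 in Mertk KO, and Nkg7 at 26.9 to 54.6 and 0 to 19.6. Gzmb (0 to 21.7 and 0 to 21.2) and Klrb1c (0 to 5.36 and 0 to 2.43) overlapped between these groups. Prf1 did not, at 0.0684 to 4.45 and 0 to 0.0523. The 7 epithelial or tumour cell markers summed to 21.3 to 31.9 CPM in control, 64.1 to 159 in Mertk KO and 0.256 to 58.9 in Ptdss1 knockdown, with Krt19 and Epcam at 0 in every control and Mertk KO library. Cdh1 alone made that separation, at 20.2 to 24.2 CPM in control and 55.4 to 96.2 in Mertk KO, while Krt8, Krt18 and Erbb3 overlapped between the groups and Krt7 was at 0 in every Mertk KO library and in 2 of 3 controls. In Mertk KO replicate 3, Cdh1 was the 1 marker of the 7 with at least 10 reads. Their part in the Socs3 result was not tested. In bulk samples, fewer cells that express a gene and less RNA of it per cell cannot be told apart.

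**Figure D3:**
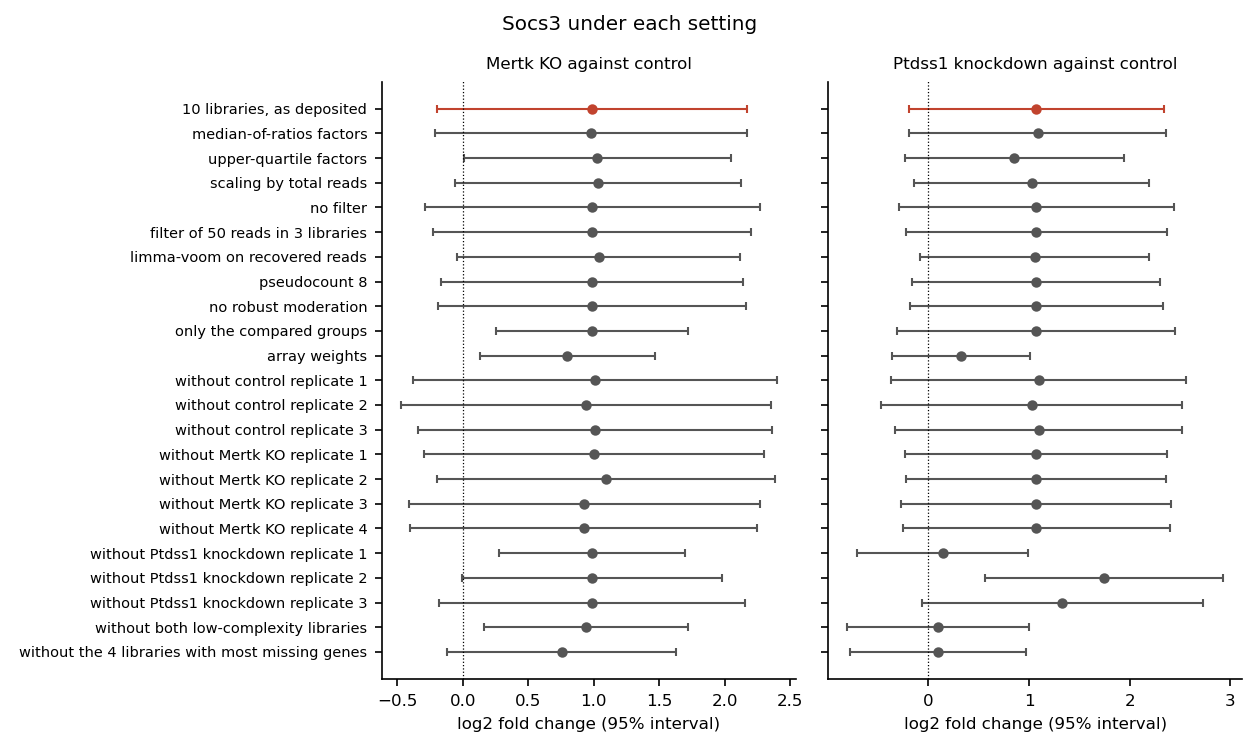
Fitted Socs3 log2 fold change with its 95% interval under the reported fit (red) and each alternative (grey), for Mertk KO against control (left) and Ptdss1 knockdown against control (right). The Mertk KO difference stayed between 0.75 and 1.10 under all 22 alternatives, whereas the Ptdss1 knockdown difference ranged from 0.09 to 1.75. Alternatives that change only the filter, the moderation or the libraries of the third group cannot move a difference and alter only its interval.

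Set against all genes, the members gave 0 calls in any comparison. Of the 9, 8 were tested. In Mertk KO against control 0 of 8 had an adjusted limma p below 0.05, where 0.0173% of 11564 genes did (2 genes, both higher), and 0 of 8 an unadjusted p below 0.05, where 2.06% did. In Ptdss1 knockdown against control and in the direct comparison 0 of 8 passed either threshold, where 0% of genes passed the adjusted one and 2.90% and 3.73% the unadjusted one. Fitted on the recovered reads by limma-voom, 0 of 8 passed in any comparison. The ranges of Mertk KO and control did not overlap for 1 of 8 members, Socs3, where 5.62% of genes had ranges that did not overlap and 3.00% had every Mertk KO library higher. For 0 of 8 members were the ranges apart in Ptdss1 knockdown against control or in the direct comparison, where the shares over all genes were 6.92% and 5.23%.

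All 8 tested members had a positive difference in Mertk KO, with a median of 0.72 beside 0.02 over all genes, of which 50.9% were positive. In Ptdss1 knockdown 6 of 8 were positive, with a median of 0.42 beside −0.05 over all genes, of which 48.0% were positive. The direct comparison had 4 of 8 positive and a median of −0.10, beside −0.11 over all genes, of which 46.0% were positive. None of these members passed the test, and the first 2 comparisons share their control libraries. The direction over members was less even in the 6 libraries that were not gene-poor, with 6 of 8 positive in Mertk KO, where Il10ra and Il10rb turned negative.

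**Figure D4:**
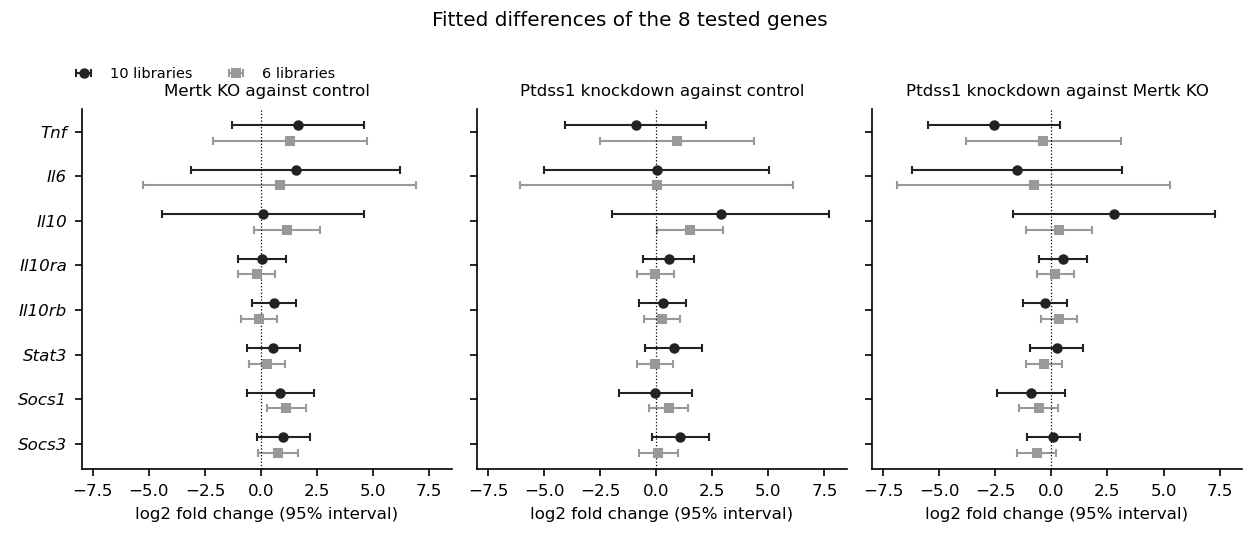
Fitted log2 fold changes of the 8 tested genes with 95% intervals, in the 10 libraries (black circles) and in the 6 libraries that were not gene-poor (grey squares). For the 10 libraries every interval includes 0, and the intervals of Tnf, Il6 and Il10 are wider than those of the receptor genes, Stat3 and the Socs genes.

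The pooled SD within groups was 3.52 for Il6, 3.12 for Il10 and 2.34 for Tnf, placing these cytokines at the 98.3rd, 94.2nd and 71.7th percentile of all tested genes, whose median was 1.64. It was 0.56 for Il10rb, 0.69 for Il10ra, 0.87 for Stat3, 0.91 for Socs3 and 1.25 for Socs1, all below that median. This order did not hold in each group: the SD of Tnf was 4.14 in Ptdss1 knockdown but 0.69 in Mertk KO, where that of Il10rb was 0.81, and 1.11 in control, where that of Socs1 was 1.86.

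The balance of the 2 arms within a library was read as the difference of log2(normalised reads + 1), called a log2 ratio below. Where Il10 had 0 reads, the Tnf to Il10 ratio equals the Tnf level. The Tnf to Il10 ratio was 4.35, 7.97 and 1.41 in control, 3.53, 2.49, 8.49 and 10.01 in Mertk KO, and −2.23, 0.54 and 4.07 in Ptdss1 knockdown. The highest 3 values came from the gene-poor libraries in which Il10 had 0 or 4 reads, and the lowest from the gene-poor library with 11 Tnf reads. Group means were 4.57 ± 3.28 (SD, n = 3), 6.13 ± 3.68 (n = 4) and 0.79 ± 3.16 (n = 3), and the groups overlapped. The Il6 to Il10 ratio had means of −2.22 ± 3.79, −0.76 ± 4.63 and −5.07 ± 2.82. The Socs1 to Socs3 ratio averaged −0.64 ± 1.94, −0.76 ± 0.74 and −1.74 ± 0.86, and Socs3 exceeded Socs1 in every library but control replicate 2 (1.54) and Mertk KO replicate 3 (0.19), both gene-poor.

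Across the 10 libraries 6 relations between inhibitors, Stat3 and cytokines were computed, and 1 passed the adjustment for the number of relations, that of Socs3 with Stat3. Pearson's r of Socs3 with Stat3 was 0.92 (permutation p = 0.00119, adjusted over the 6 relations 0.00714) and Spearman's rho was 0.77 (permutation p = 0.0129, adjusted 0.0772). Leaving out the 2 libraries of most extreme Stat3, Ptdss1 knockdown replicate 1 and Mertk KO replicate 3, gave r = 0.66 (permutation p = 0.0803, adjusted 0.241). Both were gene-poor, but they were left out for extreme Stat3, which narrows its range. The lower r can therefore not be tied to missing genes. Without control replicate 2 and Ptdss1 knockdown replicate 1, r was 0.74 (permutation p = 0.0310, adjusted 0.186). The share of commonly detected genes under 10 reads had r = 0.88 (rho = 0.52) with Stat3 and r = 0.76 (rho = 0.27) with Socs3. Its part in the relation was not tested. The permutation mixed libraries of all groups, so it does not set the relation apart from differences between groups. Socs3 with Tnf had r = −0.47 (rho = 0.22, adjusted permutation p = 0.467), and r = 0.82 (permutation p = 0.0245, adjusted 0.147) without Ptdss1 knockdown replicates 1 and 3. Socs3 with Il10 (r = −0.08, rho = −0.26), Socs3 with Il6 (r = −0.004, rho = 0.22), Socs1 with Tnf (r = −0.06, rho = 0.01) and Tnf with Il10 (r = 0.02, rho = 0.30) had adjusted permutation p of 0.990 for r. Within control or Ptdss1 knockdown 3 libraries, and within Mertk KO 4, are too few for a correlation.

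As a description, the genes whose pattern over the 10 libraries was most like that of a member were ranked by Pearson's r among 6054 genes with at least 10 reads in every library. For Socs3 these were Lrp1 (r = 0.98), Itgb2 (0.97) and P2rx4 (0.96), with 0.97, 0.90 and 0.89 when Ptdss1 knockdown replicate 1 was left out. For Stat3 they were Stat6 (0.98), Thrap3 (0.97) and Dhx8 (0.97), with 0.90, 0.89 and 0.86 without that library. For Tnf they were Gmps (0.92), Sirpb1b (0.91) and Eif4e (0.91), which fell to 0.68, 0.67 and 0.75 without it. For Il10, compared with 6055 genes, they were Utp3 (0.92), Mphosph8 (0.89) and Smim13 (0.87).

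Other genes of the 2 arms were read in lists, and 0 genes of any list passed the test over all genes in any comparison. Among 12 kinases and targets of the interleukin-10 receptor, 10 were positive in Mertk KO against control (median 0.45), where 50.9% of all genes were, and the ranges did not overlap for 3 of 12, all higher, where 5.62% of all genes did not overlap and 3.00% were higher. These were Il4ra, the interleukin-4 receptor that interleukin-10 is known to raise, at 12.04 to 13.03 against 11.22 to 12.02 (log2 difference 1.07, SE 0.51), and, named after their values were seen, Il1rn, the interleukin-1 receptor antagonist (0.71, SE 0.50), and the kinase Jak1 (0.62, SE 0.46). Cd163, the haemoglobin scavenger receptor of interleukin-10-treated macrophages, had 15, 0 and 1 reads in control and 6, 106, 1658 and 110 in Mertk KO (log2 difference 5.15, SE 2.16), and the difference was 2.62 in the 6 libraries that were not gene-poor. The adjusted limma p of each was 1.00. In Ptdss1 knockdown 10 of 12 were positive (median 0.65), among them Il1rn (1.04, SE 0.53), while Nfil3, a repressor of Il12b, was at −2.19 (SE 1.24). Without knockdown replicate 1 these were 0.40 and −0.22. In the direct comparison 6 of 12 were positive (median −0.02), with Tyk2, the receptor kinase, at 1.59 (SE 0.86) and 0.19 without that library, and Nfil3 at −2.19 (SE 1.16) and −0.21. Tyk2 was at −0.02 there without the 4 gene-poor libraries. Ddit4, named after its values were seen, was lower there in every knockdown library than in every Mertk KO library (−2.07, SE 1.91, adjusted p = 0.810), where 5.23% of all genes had ranges apart in either direction.

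Of 13 genes that make or answer Tnf, 8 were positive in Mertk KO (median 0.12), including the signalling kinase Ripk1 (0.60, SE 0.50; 0.23 without control replicate 3) and Zfp36l1, which destabilises cytokine mRNAs (0.54, SE 0.46; 0.22 without control replicate 1 and 1.07 without control replicate 3). In Ptdss1 knockdown 10 of 13 were positive (median 0.44). Tradd, the receptor adaptor, was at −1.996 (SE 1.50) and Rhbdf2, needed to mature the Tnf-shedding protease, at 0.96 (SE 0.74), and both turned without knockdown replicate 1, to 0.29 and −0.16. In the direct comparison 9 of 13 were positive (median 0.17). Zfp36l1 was lower there in every knockdown library than in every Mertk KO library (−0.80, SE 0.46, adjusted p = 0.805), where 5.23% of all genes had ranges apart in either direction. Adam17, the Tnf-shedding protease itself, was at 0.76 (SE 0.49) there and 0.15 without knockdown replicate 1. It was at −0.10 without the 4 gene-poor libraries.

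In the interleukin-6 and interleukin-12 family 2 of 9 tested genes were positive in Mertk KO (median −0.31), and Il11 and Il12a were too low to test. Il6st, which encodes gp130, was at 1.85 (SE 1.53) and the cytokine Osm at −0.45 (SE 0.44; −0.27 without Mertk KO replicate 4). In Ptdss1 knockdown 3 of 9 were positive (median −0.55), with Ebi3, a subunit of interleukin-27, at −2.75 (SE 1.70) but 0.04 without knockdown replicate 1, and Lif at −3.17 (SE 2.04). In the direct comparison 3 of 9 were positive (median −1.10). Il6st was lower in every knockdown library than in every Mertk KO library (−2.84, SE 1.53), where 5.23% of all genes had ranges apart in either direction. Il6ra, the interleukin-6 receptor, was at 1.39 (SE 0.82). Without knockdown replicate 1 the differences of Il6st and Il6ra were −1.01 and 0.67, and without the 4 gene-poor libraries −0.67 and −0.16. Adjusted limma p was 1.00, 0.841 and 0.805 for the genes named in the 3 comparisons.

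The other Socs genes and brakes on Jak and Stat signalling were evenly divided in Mertk KO, with 7 of 14 positive and a median of −0.01. The phosphatase Ptpn11 was at 1.56 (SE 0.94; 0.14 without control replicate 2) and Pias2, an inhibitor of Stat proteins, at −1.14 (SE 0.98; −0.72 without Mertk KO replicate 3). In Ptdss1 knockdown 6 of 14 were positive (median −0.39), with Socs6 at −1.94 (SE 1.03) and the phosphatase Ptpn1 at 0.99 (SE 0.55), and −0.44 and 0.27 without knockdown replicate 1. In the direct comparison 7 of 14 were positive (median −0.04), and Socs6 (−1.61, SE 0.96) and Socs4 (−2.03, SE 1.26) were at −0.10 and 0.08 without that library. They were at 0.37 and −0.10 without the 4 gene-poor libraries. Socs2, named after its values were seen, was at 8.63 to 8.84 in the knockdown libraries and 9.21 to 10.54 in Mertk KO, which did not overlap (−1.02, SE 0.69, adjusted p = 0.805). In that comparison 5.23% of all genes had ranges apart in either direction. Of 8 Stat and Jak genes 4 were positive in Mertk KO (median −0.01), 5 in Ptdss1 knockdown (median 0.78) and 7 in the direct comparison (median 0.56). Stat4 was at −2.75 (SE 2.10; −1.22 without Mertk KO replicate 4) and Stat5a at −0.89 (SE 1.09; −0.51 without control replicate 2) in Mertk KO. Stat5a turned to 0.07 there without the 4 gene-poor libraries. Jak3 was at 1.46 (SE 0.82) and Stat5a at 1.73 (SE 1.17) in Ptdss1 knockdown, and 0.41 and 0.45 without knockdown replicate 1. In the direct comparison Stat5a was at 2.62 (SE 1.09; 1.35 without it) and Jak2 at 1.03 (SE 0.75; −0.08 without it).

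Genes that NF-kappaB signals induce along with Tnf and Il6 were positive for 10 of 13 in Mertk KO (median 0.38), 10 of 13 in Ptdss1 knockdown (median 0.32) and 8 of 13 in the direct comparison (median 0.25). Nos2, the inducible nitric oxide synthase, had 28, 113 and 948 reads in control, 3393, 1055, 605 and 216 in Mertk KO, and 10, 422 and 359 in Ptdss1 knockdown. Its log2 difference in Mertk KO was 2.63 (SE 1.49), 1.44 without control replicate 1 and 4.01 without the 4 gene-poor libraries. Between the disruptions it was −3.04 (SE 1.49), and −1.39 without knockdown replicate 1. The chemokine Ccl5 was at 0.97 (SE 0.79) in Mertk KO and −1.25 (SE 0.79) between the disruptions, and 0.14 and −0.42 without Mertk KO replicate 1. Without the 4 gene-poor libraries these Ccl5 differences were 1.92 and −2.76. In Ptdss1 knockdown Nfkbiz, a cofactor of NF-kappaB, was at 1.30 (SE 0.66) and the chemokine Ccl3 at 1.06 (SE 0.70). Of the Mertk receptor family and its anti-inflammatory route, 4 of 9 were positive in Mertk KO and in Ptdss1 knockdown (medians −0.07 and −0.05) and 3 of 9 in the direct comparison (median −0.15), and Tyro3 and Twist2 were too low to test.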

How the data were processed

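RNA from 10 samples of sorted tumour-associated macrophages was copied and amplified with the SMART-Seq v4 kit (16 PCR cycles), made into ThruPLEX libraries, which do not mark strand, and read for 75 cycles in 1 run, per the labels' protocols. Reads of antisense or overlapping genes cannot be told apart, and without molecular identifiers reads are not independent molecules, so limits for a count of 0 cover counting error only. STAR, RSEM and the mm10 build (GRCm38) are named in the submitters' processing notes, without versions. The authors deposited 1 table per library with 1 value per gene, and no header states its unit. From its equal steps it was read as log2(reads divided by a size factor + 1), and undoing this recovered whole reads, within 0.01 of a read, for 100% of values. All 21938 gene IDs matched GENCODE M21.

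Genes with at least 10 reads in at least 3 libraries (11564) were fitted with limma-trend (limma 3.58.1, R 4.3.3, robust moderation) on the deposited log2 values, with all 10 libraries in 1 fit and a mean per group. Tests were two-sided, and p-values were adjusted by Benjamini-Hochberg over all genes tested, with a threshold of 0.05. A count test had been foreseen for files of counts and was not used. The sign of fitted changes was checked on simulated counts with a fixed spread and no gene-poor libraries. That check does not show how the fit performs at the spread of these libraries. CPM, the per-kilobase scale (exon lengths of GENCODE M21), ratios and correlations (100000 permutations) were computed from the recovered reads or deposited log2 values. Promoter sequences are from RefSeq. Genes named are all members, each list's called genes or otherwise its 2 of smallest p per comparison (for the Mertk route where a result turned on them), and the 3 most alike genes of 4 members. The members and lists were chosen with earlier results of these data known. Replicates were numbered in accession order, and the labels give no batch. Gene-poor libraries are those with over 5% of commonly detected genes under 10 reads; leaving all 4 out was chosen after seeing the data. Marker lists of neutrophils, T cells, B cells, dendritic cells, fibroblasts, endothelial cells and mast cells were read as well.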

Additional observations from a re-analysis of the deposited data

How the results depend on the processing

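Under the reported fit and 22 alternatives, 0 of the tested members passed the adjusted threshold in any comparison. Of the fitted differences under alternatives, 478 kept their direction and 50 turned. The 478 include alternatives that cannot turn a difference, because they change only the filter, the moderation or the libraries of the third group. No alternative turned Tnf, Stat3, Socs1 or Socs3 in Mertk KO against control, or Il10, Il10rb or Socs3 in Ptdss1 knockdown against control. The cause of the turns was not tested. With array weights Il6 and Il10ra were −0.32 and −0.21 in Mertk KO, Tnf, Il10ra, Stat3 and Socs1 were 1.48, −0.0015, −0.0094 and 0.32 in Ptdss1 knockdown, and Tnf, Il6, Il10rb, Stat3 and Socs3 were 0.48, 1.10, 0.25, −0.40 and −0.47 in the direct comparison. Without both control replicate 2 and Ptdss1 knockdown replicate 1, Il10 was −1.95 in Mertk KO, Tnf, Il10ra, Stat3 and Socs1 were 0.92, −0.038, −0.058 and 0.56 in Ptdss1 knockdown, and Il10ra, Stat3 and Socs3 were −0.14, −0.64 and −0.85 in the direct comparison. Without the 4 gene-poor libraries, an alternative chosen after seeing the data, Il10ra and Il10rb were −0.20 and −0.091 in Mertk KO, the 4 Ptdss1 knockdown values were the same as just given, and Il10rb, Stat3 and Socs3 were 0.34, −0.34 and −0.66 in the direct comparison. Upper-quartile factors gave Stat3 −0.031 and Socs3 −0.18 in the direct comparison, where they moved the median of all genes from −0.11 to −0.33 (and from −0.05 to −0.23 in Ptdss1 knockdown against control). Scaling by total reads gave Socs3 −0.0082 there, and limma-voom gave Socs1 0.055 in Ptdss1 knockdown.

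Leaving out 1 library at a time gave, in Mertk KO, 1.30 to 2.28 for Tnf, 0.28 to 3.38 for Il6, −1.95 to 1.46 for Il10, −0.15 to 0.23 for Il10ra, 0.33 to 0.83 for Il10rb, 0.36 to 0.70 for Stat3 and 0.12 to 1.91 for Socs1. In Ptdss1 knockdown it gave −2.88 to 1.25 for Tnf, −1.84 to 1.86 for Il6, −0.089 to 0.98 for Il10ra, −0.096 to 1.25 for Stat3 and −0.78 to 1.01 for Socs1. In the direct comparison it gave −0.14 to 0.93 for Il10ra, −0.64 to 0.70 for Stat3 and −0.85 to 0.76 for Socs3. The 39 alternative ratio means moved by less than their SD. Leaving 1 library out of 3 or 4 cannot move a mean by its SD, so this does not show stability. Leaving out 1 library, the mean Il6 to Il10 ratio in Mertk KO ranged from −2.43 to 1.31. The Tnf to Il10 mean in Ptdss1 knockdown ranged from −0.84 to 2.31, and the Socs1 to Socs3 mean in control from −1.72 to 0.13. The means of the other ratios and groups kept their sign. Without both low-complexity libraries, control replicate 2 and Ptdss1 knockdown replicate 1, Pearson's r was 0.33 for Socs3 with Il6, 0.66 for Socs3 with Tnf, 0.74 for Socs3 with Stat3 (adjusted permutation p = 0.186), −0.62 for Socs3 with Il10 (adjusted permutation p = 0.222), 0.51 for Socs1 with Tnf and −0.13 for Tnf with Il10. Without the 2 libraries farthest out on the second gene it was 0.82 for Socs3 with Tnf, 0.66 for Socs3 with Stat3, 0.28 for Socs1 with Tnf, −0.33 for Socs3 with Il10, −0.19 for Socs3 with Il6 and 0.03 for Tnf with Il10.

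Genes called in Mertk KO against control numbered 2, and 0 with upper-quartile factors, scaling by total reads, no filter or a filter of 50 reads, 1 without robust moderation, 25 with array weights, 1 without the gene-poor libraries and 0 to 4 leaving out 1 library. Array weights called 2 in Ptdss1 knockdown against control and 35 in the direct comparison, where leaving out both low-complexity or all 4 gene-poor libraries called 1. Il6 was at 0 in 6 of 10 libraries and Il12b in 5, and a count of 0 limits these cytokines to 3 reads in that library, by counting error only. No paired analysis was possible because the labels give no replicate numbers shared between groups.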

Other observations

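Among markers of other cells, the highest summed level in a library was 274 CPM for neutrophils, 30.5 for T cells, 42.4 for B cells, 509 for dendritic cells, 41.9 for fibroblasts, 95.1 for endothelial cells and 141 for mast cells, beside at least 20870 CPM for macrophage markers. S100a9 and Ly6g had 0 reads in every library.

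Among receptors related to Mertk, Axl was at 12.33 to 12.51 in control and 10.35 to 11.54 in the libraries labelled Mertk KO, which did not overlap (log2 difference −1.26, SE 0.53, limma adjusted p = 1.00). In that comparison 5.62% of all genes had ranges that did not overlap. In Ptdss1 knockdown Axl was at 11.72 to 14.20, above every Mertk KO library (1.51, SE 0.53, limma adjusted p = 0.805). The difference was 0.73 without knockdown replicate 1, and 5.23% of all genes had ranges apart between the disruptions. Axl was thus lower and Socs3 higher in Mertk KO than in control, while Ptdss1 knockdown replicate 1 was the highest library for both, and no relation between the genes was tested.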
